A study of Mus musculus with 34 samples.

Results

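Loss of Rb1 was examined in mouse fetal liver that already lacked both of its relatives, p107 and p130. The 12 arrays titled either p107;p130 DKO (double knockout, 6 arrays) or Rb1;p107;p130 TKO (triple knockout, 6 arrays) were taken out of 34 by their titles, and the difference was read across 12719 genes. Both groups lack p107 (gene Rbl1) and p130 (gene Rbl2), so the 6 triple-knockout arrays differ from the 6 double-knockout arrays by Rb1 alone as labelled. All tissue was freshly isolated, untreated, unfractionated fetal liver of embryonic day 14.5 by the sample labels, while the text on the whole series gives a span of day 13.5 to 14.5. Total RNA was labelled with biotin and hybridised to oligonucleotide arrays, and each probe set carries a MAS5 signal, a brightness on a linear scale. Rb1 loss in other settings was read from Rb1;p130 DKO (9 arrays) against p130 KO (3 arrays) and from Rb1 KO (2 arrays) against wild type (2 arrays). The remaining genotypes, p107 KO (1 array) and Rb1;p107 DKO (5 arrays), entered the fit and the counts over all 34 arrays. All of these were from the same stage and tissue. The sources used here give neither the design of the knockout alleles nor the cell type in which Rb1 was deleted, and the labels do not say that each array is a separate embryo. The p-values below therefore measure the spread between arrays of a genotype, estimated over all 34 arrays unless stated otherwise. The number of arrays limits their precision.

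Rb1, p107 and p130 are the pocket proteins, which bind E2F transcription factors and hold back genes needed to enter and pass through the cell cycle. Kinases of the cyclin-dependent family (CDKs) release that hold by phosphorylating the pocket proteins, and CDK inhibitors keep it in place. p107 and p130 also join the MuvB complex, which binds the CHR element of genes for mitosis. At this stage the fetal liver is the main site of red cell production, and Rb1 is known for its part in the last divisions and the maturation of red cell precursors.

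The tissue label held against its markers. The hepatocyte gene Alb lay between 27285.6 and 42196.0 on the 12 arrays, and the embryonic globin gene Hbb-y between 33299.6 and 53781.6, while the B cell factor Pax5 stayed between 6.4 and 83.2, near background. The median signal per array was 85.2 to 106.5, and the share of probe sets with a signal of at least 100 was 47.1% to 51.3%. Correlations of log2 signal were 0.968 to 0.983 among double-knockout arrays, 0.957 to 0.981 among triple-knockout arrays and 0.958 to 0.980 across the groups. Signals of Xist and of Y-linked genes showed 1 Xist-expressing and 5 Y-expressing double-knockout arrays, against 4 and 2 among the triple knockouts. All 34 arrays were also sorted by clustering into 3 array groups, a number set beforehand. The sorting rested on 2996 probe-set pairs, in which both members read a shared gene. The double knockouts fell into these groups as 3, 2 and 1 arrays and the triple knockouts as 1, 2 and 3. Neither split is in the labels, and both are followed through the results below.

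Rb1 itself gave signals of 5208.2, 6332.3 and 8035.4 in the double knockouts (lowest, median and highest of 6 arrays, the order used throughout) and of 765.9, 1184.1 and 1466.9 in the triple knockouts. Every triple-knockout array was below every double-knockout array, and a residue well above background remained. The difference was -2.46 ± 0.17 on the log2 scale (standard error; all log2 values are of signal + 32), a 5.50-fold drop, with an adjusted p of 1.6e-11 in limma's moderated test. A second Rb1 probe set was near background in both groups, with medians of 21.3 and 40.9, and gives no check. Where either probe set lies relative to the deleted part of the gene is not given in the sources used here.

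The other members of the family were low in both groups, as labelled. Rbl1 gave 43.9, 68.9 and 118.4 in the double and 56.9, 81.0 and 139.4 in the triple knockouts, against 1218.9 and 1595.4 on the 2 wild-type arrays. Its next brightest probe set had medians of 30.2 and 39.9, against 240.1 in wild type. Rbl2 gave 105.5, 203.2 and 248.7 in the double and 126.9, 183.6 and 265.4 in the triple knockouts, against 340.2 and 349.9 in wild type. A second Rbl2 probe set behaved alike, with medians of 82.3 and 79.0 against 179.8. Between the groups Rbl1 differed by 0.19 and Rbl2 by 0.04 on the log2 scale, and neither was called (limma adjusted p = 0.987 and 0.996).

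Across the genes, 49 of 12719 were called between triple and double knockout at an adjusted p under 0.05 (limma, Benjamini-Hochberg adjustment), which is 0.385% of those tested. Of these, 39 were higher without Rb1 (0.307%) and 10 were lower, Rb1 among them (0.0786%). The counts of called list members below are to be set beside these shares of all genes. The higher genes had a median fold of 1.60 and the lower ones of 2.15, and the smallest called fold was 1.29. Means differed at least 2-fold for 34 genes (0.267%), of which 16 were called, 10 higher and 6 lower. The median difference of all genes was -0.01 on the log2 scale, and 47.3% of them were higher in the triple knockouts. The groups did not overlap for 102 genes (0.802%), 70 of them higher (0.55%) and 32 lower (0.252%), and 34 of the 102 were called. An unadjusted p under 0.05 was reached by 768 genes (6.04%), 466 higher (3.66%) and 302 lower (2.37%). Because whole liver was measured, fewer cells of a type and less RNA per cell cannot be told apart for any gene below.

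**Figure D1:**
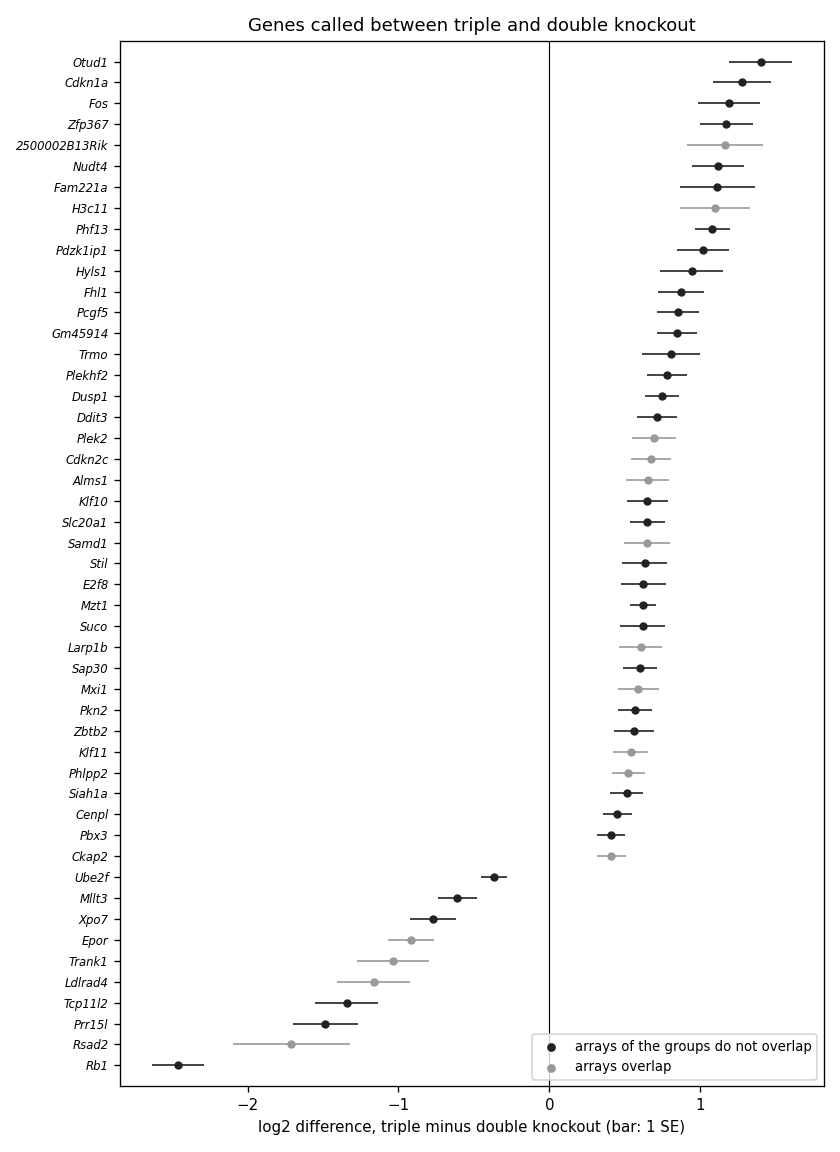
Log2 difference (triple minus double knockout, horizontal axis) of the 49 called genes, with bars of 1 standard error; dark points mark genes whose 6 triple-knockout arrays all lie on one side of the 6 double-knockout arrays. The 39 higher genes lie between 0.41 and 1.40, and Rb1 is lowest at -2.46.

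Leaving out any 1 of the 12 arrays changed the number of calls to between 28 and 52. The count was 28 without double-knockout array 2, 31 without double-knockout array 3 and 30 without triple-knockout array 2. In all 12 of these fits 23 of the 49 were called. Another 11 lost the call in 3 to 7 fits, namely Siah1a, Cenpl, Ldlrad4, Mllt3, Plek2, Klf10, Klf11, 2500002B13Rik, H3c11, Phlpp2 and Alms1. The remaining 15 lost it in 8 or more: Hyls1, Pbx3, Stil, E2f8, Fam221a, Trmo, Mxi1, Larp1b, Rsad2, Ckap2, Zbtb2, Suco, Samd1, Trank1 and Ube2f. The highest adjusted p that any of the 49 reached in these limma fits was 0.184.

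Of the CDK inhibitor genes, Cdkn1a and Cdkn2c rose. Cdkn1a encodes p21, an inhibitor of CDKs. Its signal was 129.5, 229.4 and 276.3 in the double and 322.2, 588.3 and 973.3 in the triple knockouts. Every triple-knockout array lay above every double-knockout array, and the gene rose by 1.28 ± 0.19 (adjusted p = 2.49e-04). A second, dimmer Cdkn1a probe set differed by 1.30 ± 0.33. Cdkn2c encodes p18, an inhibitor of the kinases that pair with D cyclins. It gave 1983.1, 2376.8 and 3175.1 in the double and 3086.5, 3778.0 and 5194.5 in the triple knockouts, where only the extremes overlapped, and rose by 0.68 ± 0.13 (adjusted p = 0.00786). Cdkn2d, which encodes the related p19, ran from 5033.0 to 7915.0 and from 7953.4 to 10525.5 without overlap, yet its difference of 0.56 ± 0.14 was not called (adjusted p = 0.0713). Cdkn1b differed by 0.50 ± 0.18 (adjusted p = 0.459) and Cdkn1c by 0.10 ± 0.20 (adjusted p = 0.996). Of the 7 CDK inhibitor genes written down, 5 were tested, 2 were called higher (0.307% of all genes were) and none lower. The list median was 0.56 beside -0.01 for all genes.

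On the list of pocket proteins and E2F and DP factors, E2f8 was the one gene called higher; it encodes an atypical repressor of the E2F family that lacks the pocket protein binding domain. E2f8 ran 3956.3, 4667.0 and 6106.7 in the double and 6213.9, 7118.3 and 9570.9 in the triple knockouts, with no overlap, and rose by 0.62 ± 0.15 (adjusted p = 0.0495). That call was lost in 8 of the 12 fits that left out an array, and its second probe set differed by 0.25 ± 0.37. E2f1, an activator of S-phase genes, ran 952.9, 1113.2 and 1268.6 against 1363.4, 1518.1 and 1855.4. The E2f1 groups did not overlap, and its difference of 0.47 ± 0.12 missed the threshold (adjusted p = 0.0841). E2f7, the other atypical repressor, differed by 0.53 ± 0.14 (adjusted p = 0.0903). All 13 genes listed as pocket proteins, E2F and DP factors were tested; 1 was called higher and 1 lower, Rb1, and the median was 0.11.

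Genes downstream of E2F in DNA synthesis gave small differences. Of 33 DNA replication genes tested, 24 were higher in the triple knockouts, none was called and the median was 0.04. Uhrf1, which carries DNA methylation through replication, ran 7178.7, 7693.3 and 10480.9 against 8765.0, 10763.6 and 12344.7, a difference of 0.40 that was not called. Slbp, which binds histone messages, ran from 14408.1 to 16535.1 and from 17373.6 to 20891.3 with no overlap. That difference was only 0.26 ± 0.08 and was not called (adjusted p = 0.243). Among 10 G1 and S cyclins and kinases none was called and the median was 0.005, with Ccne2 highest at 0.67 and Ccnd2 lowest at -0.37. The histone list had 11 tested members, none called, and a median of 0.22, with 6 members higher at an unadjusted p under 0.05 (3.66% of all genes). Its median was 0.386, 0.441 and -0.008 within the 3 array groups. The called histone gene H3c11, described below, is not on that list.

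Zfp367, a zinc finger gene, rose most among the called genes whose promoter window, where one was available, holds the letters of an E2F site. It gave 1642.7, 1914.6 and 2343.8 in the double and 3147.0, 4453.7 and 5810.8 in the triple knockouts, with a clear gap between the groups. The rise was 1.17 ± 0.18 (adjusted p = 2.49e-04), and a second probe set differed by 0.92 ± 0.30. RefSeq promoter windows of build GRCm38.p6, from 250 bases before to 50 bases after a start site, were available for 41 of the 49 called genes. They were searched on both strands for TTTCCCGC, TTTGGCGC, TTTCGCGC or TTTGCCGC. The 4 called genes with a match were all higher without Rb1, namely Zfp367, Cenpl, Alms1 and Trmo, and they are shown because E2F factors, the partners of the pocket proteins, read such letters. Each line gives 170 bases before and 20 bases from the start site, read 5′ to 3′ along the gene; capitals mark E2F letters and, in Cenpl, also the CHR letters TTCAAA near the left end.
Zfp367, chr13:64153180-64153369, - strand: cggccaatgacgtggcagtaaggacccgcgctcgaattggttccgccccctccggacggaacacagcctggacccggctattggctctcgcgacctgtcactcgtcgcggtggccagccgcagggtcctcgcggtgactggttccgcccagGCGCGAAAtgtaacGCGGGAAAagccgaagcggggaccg
Cenpl, chr1:161070597-161070786, + strand: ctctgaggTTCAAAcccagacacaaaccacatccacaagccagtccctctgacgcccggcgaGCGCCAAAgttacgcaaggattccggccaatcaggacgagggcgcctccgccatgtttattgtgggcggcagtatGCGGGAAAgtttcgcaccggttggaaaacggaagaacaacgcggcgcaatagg
Alms1, chr6:85587361-85587550, + strand: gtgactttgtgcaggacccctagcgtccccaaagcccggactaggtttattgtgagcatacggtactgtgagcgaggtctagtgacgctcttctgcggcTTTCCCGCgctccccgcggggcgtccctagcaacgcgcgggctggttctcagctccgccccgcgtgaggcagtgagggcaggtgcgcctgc
Trmo, chr4:46389404-46389593, - strand: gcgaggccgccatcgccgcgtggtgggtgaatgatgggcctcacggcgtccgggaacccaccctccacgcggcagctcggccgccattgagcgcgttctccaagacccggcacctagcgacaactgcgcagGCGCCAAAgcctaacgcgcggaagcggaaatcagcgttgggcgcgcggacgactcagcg
The Zfp367 window held matches that began 19 and 5 bases before the start site, both on the opposite strand. These 4 genes are 11.4% of the 35 called-higher genes with a window, beside 4.7% of the 10281 tested genes with one. None of the 6 called-lower genes with a window held the letters. The match is a description of the letters only.

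**Figure D2:**
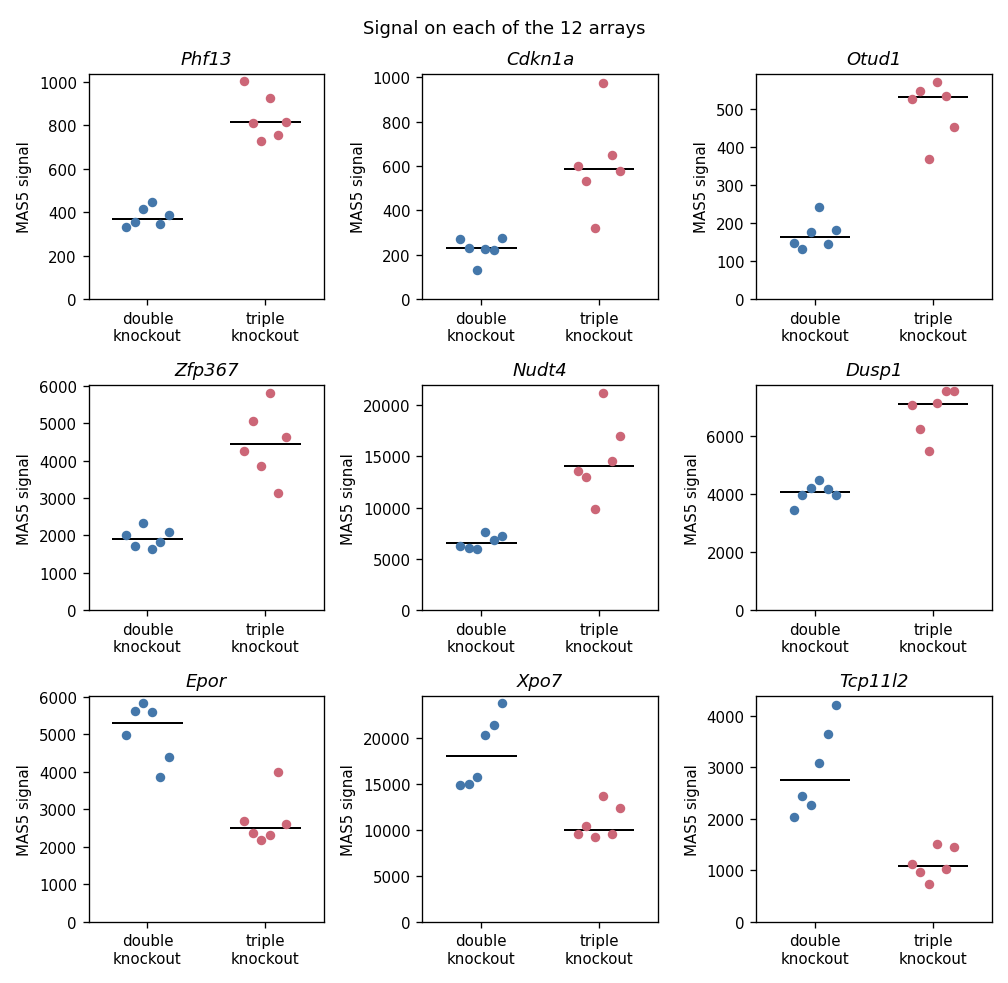
MAS5 signal (linear vertical axis from 0) on each of the 12 arrays for 9 of the called genes, double knockout in blue and triple knockout in red, with a line at each median. Phf13 lies at 331.4 to 445.0 in the double and at 727.9 to 1003.5 in the triple knockouts, and for Epor 1 triple-knockout array, at 3999.6, reaches into the double-knockout range.

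Mzt1, Stil, Cenpl, Ckap2, Hyls1 and Alms1, gathered here by their known roles after the calls were seen, all rose; Ckap2 alone is on a gene list used here. Mzt1 encodes a small subunit of the gamma-tubulin ring, which seeds microtubules. It ran 4162.4, 4702.0 and 5258.1 in the double and 6171.7, 7178.9 and 8295.7 in the triple knockouts, the groups standing well apart. Mzt1 rose by 0.62 ± 0.09 (adjusted p = 1.28e-04), and its other 2 probe sets differed by 0.75 ± 0.17 and 0.51 ± 0.17. Stil, needed to duplicate centrioles, ran from 730.6 to 1265.0 and from 1323.1 to 2231.4 without overlap and rose by 0.63 ± 0.15 (adjusted p = 0.0495). Cenpl, a kinetochore protein gene, ran from 1163.2 to 1532.7 and from 1659.3 to 2087.3 without overlap and rose by 0.45 ± 0.10 (adjusted p = 0.0182). The spindle gene Ckap2 overlapped between the groups (1930.8 to 2457.2 and 2349.0 to 3331.7) and rose by 0.41 ± 0.10 (adjusted p = 0.0495). A pair of dim genes of centrosomes and basal bodies were also called: Hyls1 (0.94 ± 0.21, adjusted p = 0.0272, no overlap) and Alms1 (0.65 ± 0.14, adjusted p = 0.0265, with overlap).

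Of 34 tested genes on the list for mitosis and spindle, 32 were higher in the triple knockouts and the median was 0.22, beside -0.01 for all genes. Ckap2 alone of them was called. Another 12 were higher at an unadjusted p under 0.05, as 3.66% of all genes were, among them Nusap1 (0.58 ± 0.14, adjusted p = 0.0626), Prc1 (0.35 ± 0.09, adjusted p = 0.0762) and Cdk1 (0.25 ± 0.07, adjusted p = 0.178). Prc1, which bundles the central spindle, ran from 3322.5 to 4064.4 and from 4318.1 to 4696.3 without overlap. Within the 3 array groups the list median was 0.20, 0.20 and 0.18. The MuvB complex and its partners Mybl2 and Foxm1 had 7 of 7 members higher, a median of 0.21 and none called.

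The CHR letters TTTGAA or TTTAAA, searched on both strands, stood in 86.7% of the 30 mitosis and spindle genes with a promoter window and in 22.8% of all 10281. Among the called-higher genes 9 of 35 held them (25.7%), and among the called-lower genes 3 of 6 did. The letters were thus not confined to genes that rose. E2f8 and Mzt1 are shown for this element, with CHR letters in capitals and the same window as above.
E2f8, chr7:48881577-48881766, - strand: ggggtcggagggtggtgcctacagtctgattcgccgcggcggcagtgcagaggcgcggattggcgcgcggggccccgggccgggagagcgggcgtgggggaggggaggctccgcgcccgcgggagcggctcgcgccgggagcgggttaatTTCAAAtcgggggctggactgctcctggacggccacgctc
Mzt1, chr14:99046117-99046306, - strand: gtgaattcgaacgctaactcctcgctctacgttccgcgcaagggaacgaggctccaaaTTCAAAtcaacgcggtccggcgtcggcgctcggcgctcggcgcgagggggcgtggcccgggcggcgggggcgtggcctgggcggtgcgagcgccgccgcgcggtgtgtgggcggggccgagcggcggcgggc
In E2f8 the match began 20 bases before the start site and in Mzt1 112 bases before it, on the opposite strand in both. The window of E2f8 held none of the 4 E2F spellings.

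Genes that respond quickly to growth factors or stress rose in part. Fos, an AP-1 transcription factor gene, ran 124.2, 176.9 and 222.7 in the double and 298.8, 488.9 and 563.3 in the triple knockouts. No arrays overlapped, and Fos rose by 1.19 ± 0.20 (adjusted p = 0.00139). Dusp1 encodes a phosphatase of MAP kinases. It gave 3449.0, 4073.1 and 4492.5 against 5473.1, 7082.6 and 7536.8, again with no overlap, and rose by 0.75 ± 0.11 (adjusted p = 2.96e-04). Fos and Dusp1 were the only calls among the immediate-early genes, beside 0.307% of all genes called higher. The other 15 tested were not called, and the list median was 0.05. Ddit3, which encodes the stress factor CHOP, ran from 286.1 to 535.4 and from 647.2 to 810.1 and rose by 0.72 ± 0.13 (adjusted p = 0.00425). Its second probe set differed by only 0.31 ± 0.21. Of 14 heat shock and chaperone genes none was called. Dnajb1 ran from 4251.4 to 5330.3 and from 5764.9 to 7906.0 without overlap, a difference of 0.51 ± 0.13 (adjusted p = 0.0713).

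Otud1, a deubiquitinase gene, had the largest rise among the called genes. It gave 131.7, 162.7 and 242.0 in the double and 368.5, 530.5 and 570.6 in the triple knockouts. The lowest triple-knockout array stood above the highest double-knockout array, and the difference was 1.40 ± 0.21 (adjusted p = 2.49e-04). Cdkn1a was the only called gene among 16 tested p53 targets, whose median was 0.07. Trp53inp1 (0.97 ± 0.24, adjusted p = 0.0626) was higher and Gadd45a (-0.44 ± 0.13, adjusted p = 0.199) lower with no overlap in either, and neither was called. Mdm2 differed by 0.04 ± 0.17 and Ccng1 by -0.27 ± 0.31. None of 13 BCL2 family genes was called, and Bbc3, which promotes cell death, was the highest of them at 0.94 ± 0.32 (adjusted p = 0.383).

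Several rising genes encode proteins of chromatin and transcription. Phf13, a reader of the histone mark of active promoters, ran 331.4, 370.2 and 445.0 in the double and 727.9, 813.1 and 1003.5 in the triple knockouts. The gap between the groups was wider than the range within the double knockouts. Phf13 rose by 1.08 ± 0.11 and had the lowest adjusted p after Rb1, 3.99e-07. Pcgf5, a subunit of polycomb repressive complex 1, ran 898.8, 1183.1 and 1344.7 against 1715.6, 2049.5 and 2582.1. It rose by 0.85 ± 0.14 without overlap (adjusted p = 5.96e-04), and its other probe set differed by 0.50 ± 0.26. These were the 2 called among 23 genes on the polycomb list, beside 0.307% of all genes called higher, and the list median was 0.06. The list also holds chromatin readers such as Phf13 and was written with earlier results of these data known. Nothing is therefore read from that count. Rnf2, the catalytic subunit of polycomb repressive complex 1, differed by 0.23 (adjusted p = 0.563).

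Sap30, a subunit of the Sin3 histone deacetylase complex, ran from 1360.3 to 1913.7 and from 2106.7 to 2748.2 and rose by 0.60 ± 0.11 (adjusted p = 0.00438). The Krüppel-like factor gene Klf10 ran from 844.8 to 1035.9 and from 1175.0 to 1790.2 and rose by 0.65 ± 0.14 (adjusted p = 0.0172). Its relative Klf11 overlapped between the groups and rose by 0.54 ± 0.12 (adjusted p = 0.0182). Pbx3, a homeodomain factor gene, rose by 0.41 ± 0.09 (adjusted p = 0.0299) and Zbtb2, a zinc finger gene, by 0.56 ± 0.13 (adjusted p = 0.0485), both without overlap. Samd1, whose product binds unmethylated CpG islands, and Mxi1, a partner of MAX that opposes MYC, rose by 0.65 ± 0.15 and 0.59 ± 0.14 with overlapping arrays (adjusted p = 0.0495 and 0.046). The replication-dependent histone gene H3c11 was dim, at 54.5, 74.9 and 163.4 against 157.0, 207.6 and 327.5, and rose by 1.10 ± 0.23 with a small overlap (adjusted p = 0.0177).

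The other rises belonged to no list. Nudt4, an enzyme that removes phosphate from inositol pyrophosphates, was among the brightest called genes, at 5954.6, 6515.9 and 7644.3 in the double and 9911.5, 14025.7 and 21177.4 in the triple knockouts. All triple-knockout arrays stood above the double knockouts, with a wider spread among themselves. Nudt4 rose by 1.12 ± 0.17 (adjusted p = 3.59e-04), and its second bright probe set differed by 0.62 ± 0.13. Pdzk1ip1, which encodes a small membrane protein, ran 634.4, 699.9 and 1031.3 against 1358.6, 1554.6 and 2126.2. It rose by 1.02 ± 0.17 without overlap (adjusted p = 0.00111), and a second probe set differed by 1.03 ± 0.24. Fhl1, a LIM-domain protein gene on the X chromosome, ran from 572.1 to 930.9 and from 1006.9 to 1921.3 and rose by 0.87 ± 0.15 (adjusted p = 0.00144). It was the only called gene on a sex chromosome, and its difference was 1.03 within the Xist-expressing arrays and 0.97 within the Y-expressing ones.

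Slc20a1, a phosphate transporter gene, ran from 6763.1 to 9285.9 and from 10883.5 to 14671.3 and rose by 0.65 ± 0.12 (adjusted p = 0.00261). Plekhf2, whose product sits on endosomes, ran from 625.1 to 794.8 and from 1043.0 to 1635.8 and rose by 0.78 ± 0.13 (adjusted p = 0.00111). Its second probe set differed by 0.30 ± 0.15. Plek2, a pleckstrin gene that acts on the actin skeleton of red cell precursors, rose by 0.69 ± 0.14 with overlap (adjusted p = 0.0162). The kinase gene Pkn2 (0.57 ± 0.11, adjusted p = 0.00847) and the ubiquitin ligase gene Siah1a (0.51 ± 0.11, adjusted p = 0.0172) rose without overlap. Dimmer Siah1a probe sets differed by 0.28 ± 0.17 and 0.19 ± 0.14. Phlpp2, a phosphatase of Akt, rose by 0.52 ± 0.11 (adjusted p = 0.0172) on its brightest probe set, but the mean of all its probe sets differed by -0.06. Suco, Larp1b, Trmo, Fam221a, 2500002B13Rik and Gm45914 were the remaining called-higher genes, with rises from 0.61 to 1.17.

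Among the 9 genes other than Rb1 that fell, Epor and Xpo7 belong to red cell precursors. Epor encodes the receptor for erythropoietin, the hormone that keeps these cells alive. It ran 3855.2, 5284.7 and 5829.4 in the double and 2174.1, 2484.0 and 3999.6 in the triple knockouts. A single triple-knockout array, number 5, reached into the double-knockout range, and the other 5 lay at or below 2673.5. Epor fell by 0.92 ± 0.15 (adjusted p = 0.00111). Its promoter window is shown for the GATA letters, which red cell factors of the GATA family read; the capitals mark TTATCT, the opposite strand of AGATAA, 54 bases before the start site.
Epor, chr9:21963557-21963746, - strand: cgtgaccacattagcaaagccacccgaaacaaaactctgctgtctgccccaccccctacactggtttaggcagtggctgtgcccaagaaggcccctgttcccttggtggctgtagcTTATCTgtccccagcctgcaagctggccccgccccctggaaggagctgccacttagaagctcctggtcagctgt
The letters AGATAA or TGATAA stood in 12.9% of all 10281 windows, in 5 of 35 called-higher genes and in 1 of 6 called-lower ones, Epor. Of the 13 genes tested for erythropoietin receptor signalling, Epor alone was called, the median was -0.18, and the feedback inhibitor gene Socs3 differed by 0.51 (adjusted p = 0.287).

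Xpo7 encodes an exportin used by red cells as they condense their nuclei. It was very bright, at 14884.7, 18030.1 and 23824.8 in the double and 9195.3, 9964.3 and 13687.8 in the triple knockouts, with no overlap. Xpo7 fell by 0.77 ± 0.15 (adjusted p = 0.0104), and its dimmer probe sets differed more, by -1.02 ± 0.14 and -1.45 ± 0.15. The gene lies on chromosome 14, as Rb1 does, the fifth tested gene from it on one side. Of the 40 tested genes nearest to Rb1, 20 on each side, Xpo7 alone was called, beside 0.385% of all genes. Among the 40, 3 had an unadjusted p under 0.05 (6.04% of all genes did), 19 were lower and the median was 0.01. Mzt1 was the third called gene on that chromosome and rose.

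Of 17 tested genes of late red cell remodelling, Xpo7 alone was called, 6 were higher in the triple knockouts, and the list median was -0.18. Another 5 were lower at an unadjusted p under 0.05, as 2.37% of all genes were, and none was higher at that level. Alox15 was the highest, at 0.46 ± 0.27 (adjusted p = 0.915), followed by Hemgn at 0.18 ± 0.13 (adjusted p = 0.969). Ube2o, a ubiquitin enzyme that clears proteins from maturing red cells, ran from 2610.2 to 3822.1 and from 1460.6 to 2566.5 without overlap. Its difference was -0.77 ± 0.20 (adjusted p = 0.077). Bpgm, which makes the red cell regulator of haemoglobin, ran from 6069.1 to 8596.1 and from 4230.8 to 6004.5 without overlap, a difference of -0.52 ± 0.14 (adjusted p = 0.135). Within the 3 array groups the list median was -0.06, -0.17 and -0.32, so its size moved with that grouping, and its part in the result was not tested. No member was called among 15 red cell transcription factors (median -0.03), 4 globins (0.26), 16 heme and iron genes (0.04) and 16 red cell membrane genes (0.10). Within the 3 array groups the transcription factor median was 0.152, 0.06 and -0.22, and the heme and iron median 0.091, 0.025 and -0.202. The membrane median was 0.27, 0.117 and -0.192 there, and the globin median 0.324, 0.045 and 0.365. A move with array group was thus not particular to the late remodelling list. Of 8 globin genes written down, Hba-a1, Hbb-b1, Hbb-bt and Hbb-bs were not tested, so the globins were read only in part. The tested Hba-a2 probe set was dim, at 109.4 to 202.8 in the double and 133.9 to 278.4 in the triple knockouts.

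The remaining falls were of varied kinds. Tcp11l2, a gene of no well-known role in liver, ran 2031.0, 2753.0 and 4205.4 against 736.6, 1076.4 and 1507.0. It fell by 1.34 ± 0.21 without overlap (adjusted p = 3.59e-04). Prr15l, a dim gene, ran 127.4, 187.9 and 227.4 against 13.9, 51.1 and 91.6, so that the triple knockouts were near background. It fell by 1.48 ± 0.22 (adjusted p = 2.47e-04). Mllt3, also called AF9, which supports blood stem cells, ran 2455.7, 3300.7 and 3551.9 against 1577.9, 2086.3 and 2425.6 and fell by 0.61 ± 0.13 (adjusted p = 0.0177). The interferon-induced antiviral gene Rsad2 varied widely, at 1687.7, 2165.7 and 4455.0 against 416.7, 559.4 and 1990.9, and fell by 1.71 ± 0.39 with overlap (adjusted p = 0.0368). It was the only called gene of 13 tested interferon-response genes, whose median was 0.02. Ldlrad4, an inhibitor of TGF-beta signalling, fell by 1.17 ± 0.24 with overlap (adjusted p = 0.0172). Ube2f, an enzyme that attaches NEDD8, fell by 0.36 ± 0.09 (adjusted p = 0.0495). Trank1 was near background, with medians of 60.6 and 10.3, and fell by 1.03 ± 0.24 with overlap (adjusted p = 0.044).

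Markers of the other cells in the liver gave 1 call, Mllt3 on the stem and progenitor list. On that list 16 of 17 genes were tested, the median was -0.11, and their summed signal ran 10918, 11558 and 12886 in the double and 8835, 10342 and 10882 in the triple knockouts. Without the called gene Mllt3 the sums of the other 15 overlapped, at 7490, 8577 and 9447 against 7073, 8048 and 8728. Kit, the receptor of early progenitors, differed by -0.23 ± 0.15 (adjusted p = 0.959). Hepatocyte genes had a median of 0.13 over 17 tested and summed signals of 163893 to 215100 against 192422 to 231146; Cps1, a urea cycle enzyme gene, was highest at 1.42 ± 0.55 with wide overlap and was not called (adjusted p = 0.571). Medians were -0.04 for 16 macrophage genes, -0.05 for 13 neutrophil genes and 0.01 for 14 megakaryocyte genes. These medians moved widely within the 3 array groups. They were -0.244, 0.005 and -0.304 for macrophages, -0.679, 0.189 and 0.316 for neutrophils, and 0.354, -0.043 and -0.704 for megakaryocytes. The part of that grouping was not tested. Endothelial and stellate cell genes, 16 tested on each list, had medians of 0.14 and 0.10. Of 14 lymphoid genes only 5 were tested, and their summed signal stayed between 395 and 660 on all 12 arrays. The part of cell mixture in any single gene's difference was not tested.

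Mitochondrial respiration genes (19 tested, median -0.07) and hypoxia-response genes (19 tested, median 0.14) gave no call. Among the latter Kdm3a, a histone demethylase gene, was highest at 0.57 ± 0.16 (adjusted p = 0.12). Pdk1, which turns pyruvate away from mitochondria, was lowest at -0.83 ± 0.25 (adjusted p = 0.199). None of 16 DNA repair and checkpoint genes was called; Brca1 ran from 1669.0 to 3011.3 and from 2663.9 to 3965.4, a difference of 0.56 (adjusted p = 0.0996).

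**Figure D3:**
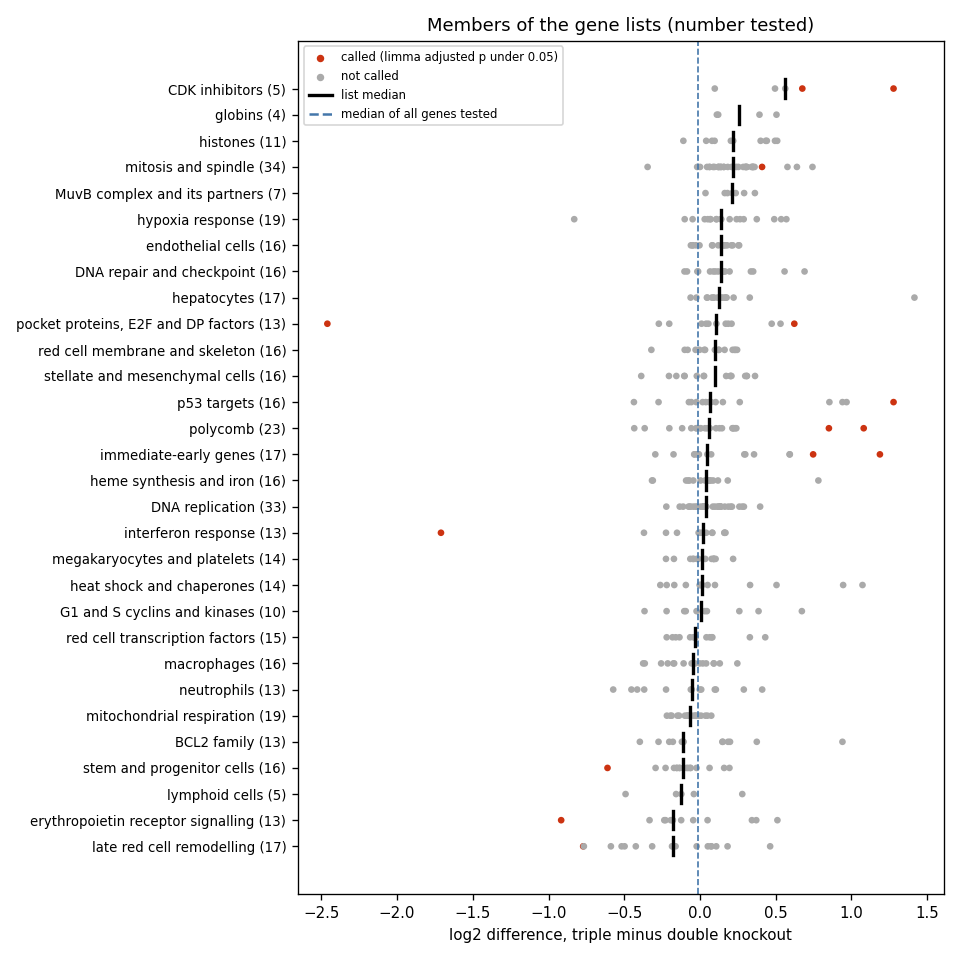
Log2 difference (triple minus double knockout, horizontal axis) of every tested member of the 30 gene lists, 1 line per list with the number tested, ordered by median; red points were called, black bars are list medians and the dashed line is the median of all genes, -0.01. CDK inhibitors have the highest median, 0.56, and late red cell remodelling genes the lowest, -0.18.

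The called genes were also read on their other probe sets and within splits of the 12 arrays. Counted here were 30 other probe sets with a mean signal of at least 100, which belong to 19 of the called genes. Of these, 29 differed in the same direction, the exception being a dim one of Ube2f (0.24 ± 0.30). With the mean of all probe sets per gene 59 genes were called, 35 of the 49 among them. The call was then lost by Ddit3, E2f8, Fhl1, Hyls1, Larp1b, Ldlrad4, Mxi1, Mzt1, Pcgf5, Phlpp2, Siah1a, Suco, Ube2f and Zbtb2. For the 34 called genes without overlap, the sign within any split of these arrays is fixed by their choice, so the splits are given only for the 15 that overlap. Within the 3 array groups, of which the first holds 1 triple-knockout array and the third 1 double-knockout array, the sign turned for Ldlrad4 (0.03 in the first) and Plek2 (-0.08 in the third). The Xist-expressing arrays include 1 double knockout, and neither they nor the Y-expressing arrays turned a sign. With sex as a block 31 genes were called, all of them among the 49. The 18 that lost the call were E2f8, Stil, Ckap2, Alms1, Klf10, Mllt3, Pbx3, Phlpp2, H3c11, Fam221a, Trmo, Samd1, Mxi1, Zbtb2, Larp1b, Suco, Trank1 and Ube2f, with adjusted p from 0.0505 (Fam221a) to 0.142 (Ube2f) in limma. With array group as a block 110 genes were called, 48 of the 49 among them.

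The same genes were then read in the other arrays, whose genotype means had no part in the difference that chose them but whose spread entered the same fit. A fit on the 12 arrays alone called 41 genes, 32 of the 49 among them. Where p130 alone was absent, Rb1 loss (Rb1;p130 DKO, 9 arrays, minus p130 KO, 3 arrays) called 15 genes (0.118%) and put 5.29% of genes under an unadjusted p of 0.05. By their signals all p130 KO arrays expressed Xist, while the Rb1;p130 DKO arrays held Xist- and Y-expressing ones. No sex block entered this fit. All 48 called genes other than Rb1 differed in the same direction in this comparison, as did 62.0% of all genes tested. Of the 48, 41 had an unadjusted p under 0.05 (4.38% of all genes did so in the same direction) and 11 were called. With Rb1 the 2 comparisons shared 12 calls, 24.5% of the 49 and 80.0% of the 15: Epor, Fhl1, Klf10, Mllt3, Pcgf5, Phf13, Phlpp2, Prr15l, Rb1, Sap30, Siah1a and Tcp11l2. Phf13 differed by 1.12 ± 0.13 with p107 present, beside 1.08 ± 0.11 with it absent. Epor differed by -0.89 ± 0.18 and Prr15l by -1.68 ± 0.25 in that setting (limma adjusted p = 0.0224 and 4.79e-04).

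Where p107 was present, 35 of the 48 differences were smaller, with medians of 0.61 against 0.68 for the higher genes and -0.89 against -1.03 for the lower ones. The 48 were chosen for passing the threshold with p107 absent, which by itself favours smaller values elsewhere, so nothing is read from that count. A test of the difference between the 2 settings, the interaction of Rb1 loss with p107 loss, called 0 of 12719 genes in limma, with 211 under an unadjusted p of 0.05 (1.66%) and a lowest adjusted p of 0.9995. Of the 48, 4 were under that unadjusted p, namely Ddit3, Hyls1, Pdzk1ip1 and Otud1. The interaction contains the difference that chose the 48, which by itself favours larger values with p107 absent. Nothing is therefore read from these 4 either, and their values are a description only. Otud1 differed by 1.40 ± 0.21 with p107 absent and by 0.73 ± 0.24 with it present, an interaction of 0.67 ± 0.32. For Pdzk1ip1 the differences were 1.02 ± 0.17 and 0.39 ± 0.20. Whether Rb1 loss acts differently with p107 absent was therefore not resolved for any gene by these arrays.

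With both relatives present, Rb1 KO minus wild type (2 arrays each) called 1 gene, Rb1 itself (0.00786%), and 3.46% of genes had an unadjusted p under 0.05. The Rb1 KO arrays expressed Y-linked genes, while wild type held an Xist- and a Y-expressing array, and no sex block entered the fit. Of the 48, 47 differed in the same direction (57.3% of all genes did) and 32 of them had an unadjusted p under 0.05 (2.47%). The exception was the near-background gene Trank1, at 0.83 ± 0.41. Medians were 0.56 for the higher and -0.66 for the lower genes. Cdkn1a differed by 1.28 ± 0.33 there and Fos by 1.32 ± 0.35, values close to their differences between triple and double knockout. For Epor the difference was -0.42 ± 0.27, and the test of wild type against Rb1 KO did not pass (adjusted p = 0.9999).

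**Figure D4:**
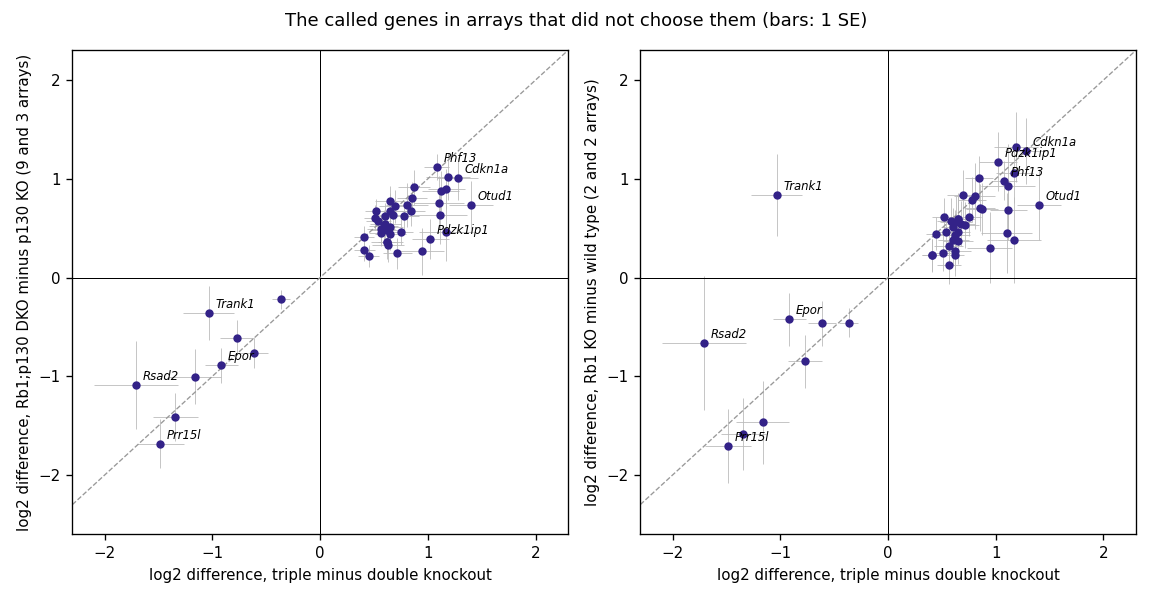
Log2 differences with 1 standard error of the 48 called genes other than Rb1, triple minus double knockout on the horizontal axis, against Rb1;p130 DKO minus p130 KO (left) and Rb1 KO minus wild type (right) on the vertical axis; the dashed line marks equal values. All 48 points on the left and 47 on the right share their sign, and Trank1 stands apart at 0.83 on the right.

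Over all 34 arrays, 12 carry Rb1 and 22 do not. For 7 genes, 0.055% of those tested, every array without Rb1 lay on one side of every array with it, and all 7 were called between triple and double knockout. Cdkn1a, Mzt1, Pcgf5, Phf13 and Plekhf2 were the 5 higher, and Tcp11l2 and Rb1 the 2 lower. The 12 arrays compared here are among the 34, so their separation is part of that count.

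A further 68 genes separated the triple from the double knockouts on every array without being called. They include Cdkn2d, E2f1, Slbp, Prc1 and Cdk1, described above. Klf5, a Krüppel-like factor gene, had the largest difference among them, 1.33 ± 0.32 (adjusted p = 0.0513). Fbxo5, which restrains the anaphase-promoting complex, was higher by 0.70 ± 0.19 (adjusted p = 0.103), and Ncapd2, a condensin subunit, by 0.42 ± 0.11 (adjusted p = 0.0762). Pbk, a kinase of dividing cells, differed by 0.36 ± 0.09 (adjusted p = 0.0514). These 4 were named after their values were seen.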

How the data were processed

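The authors deposited 1 table of MAS5 signals, an intensity on a linear scale, for 45037 probe sets on 34 arrays; MAS5 in GCOS 1.4 is named in the submitters' processing notes. Probe sets were named through the platform annotation and RefSeq GRCm38.p6: 34945 have 1 symbol, 932 several and 9160 none. Here arrays were rescaled to a 2% trimmed mean of 500, the brightest probe set per gene was kept, and genes with a signal of 100 on at least 2 arrays were tested (12719). log2(signal + 32), which understates changes of dim genes, was fitted in limma 3.58.1 (R 4.3.3) with 1 mean for each of the 8 genotypes over all 34 arrays, eBayes with an intensity trend and Benjamini-Hochberg adjustment, two-sided; a gene was called at an adjusted p under 0.05. The scripts were tested on simulated data. Named genes are the pocket protein genes, all called genes and the leading members of each of 30 gene lists (524 symbols), given by counts and medians with no set test. Other list members were named after their values were seen. Genes, lists and members were chosen with earlier results of these data known. Sex and array group were inferred from signals. Alternatives covered scaling, filters, probe sets, blocks and each array left out. Replicate numbers did not pair the arrays.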

Additional observations from a re-analysis of the deposited data

Results flagged for a closer look

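In 6 of 102 checks of a named gene within 1 group of 6 arrays, 1 array stood far from the other 5 by Dixon's criterion, which chance meets in about 1 of 20. Cdkn1a was lowest on double-knockout array 3, at 129.5, with the others between 220.0 and 276.3. Epor was highest on triple-knockout array 5, at 3999.6, beside 2174.1 to 2673.5. Fhl1 was highest on double-knockout array 4, at 930.9, beside 572.1 to 676.3. Pbx3 was highest on triple-knockout array 1, at 3323.9, beside 2434.9 to 2644.0. Double-knockout array 1 was lowest for Prr15l, at 127.4 beside 185.2 to 227.4, and highest for Siah1a, at 1566.9 beside 1177.0 to 1259.0. Pbx3 lost its call in limma without the array named, Siah1a without 3 other arrays, while Cdkn1a, Epor, Fhl1 and Prr15l were called whichever array was left out.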

How the results depend on the processing

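The count of 49 calls became 145 with array weights, 110 with an array group block, 31 with a sex block, 85 with both blocks and, in a fit chosen after seeing the data, 13 with a sex block on the 12 arrays alone; the cause was not tested. Leaving out 1 array gave 28 to 52 calls, with double-knockout arrays 2 (28) and 3 (31) and triple-knockout array 2 (30) lowering it most. Other settings gave 36 to 64. With a replicate block 36 genes were called, 28 higher and 8 lower, 28 of them among the 49; same-numbered arrays correlated at -0.266 to 0.285, and only number 3 of the triple knockouts matched its own number best, so the numbers were not taken as pairs. Phlpp2 turned from 0.52 to -0.057 with the mean of all probe sets. The interaction called 0 genes under every alternative in which it was fitted. Fits on the 12 arrays alone, the replicate block among them, lack groups that it needs. Under all 28 alternatives 11 of the 49 genes were called: Cdkn1a, Dusp1, Nudt4, Otud1, Pdzk1ip1, Phf13, Plekhf2, Prr15l, Rb1, Tcp11l2 and Zfp367. Dim genes, such as Trank1 and Prr15l, are limited by signal near background.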
